A study of Danio rerio with 5 samples.

Results

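Cathepsins are proteases that work mainly in the acidic lysosome, where they cut proteins taken up or discarded by the cell. They are made as inactive precursors, sorted to the lysosome and activated there, and cystatins block those with a catalytic cysteine. In fish, cathepsins of the B, D and L types also cut vitellogenin and stored yolk protein, which feeds the embryo before it can eat. Described here are 9 zebrafish (Danio rerio) genes of this kind, ctsa, ctsba, ctsc, ctsd, ctsh, ctsk, ctsla, ctslb and ctsz. They were taken as every non-control probe whose RefSeq accession belongs to one of these genes, which gave 23 probes of the 43603 on the array and 9 genes of the 10791 tested.

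At the 1-cell stage each embryo received 1 nl of morpholino, an antisense oligonucleotide that blocks the translation or splicing of a chosen RNA, and RNA was taken from whole embryos 14 h post fertilization. The control group (3 arrays) received 7.5 ng of a control morpholino. Embryos of the gata5/6 morpholino group (2 arrays) were given 6.25 ng of gata5 and 1.25 ng of gata6 morpholino together, which per the labels was meant to lower gata4 too. These genes encode zinc-finger transcription factors of heart and gut. Strain and the number of embryos pooled per sample are not given in the sources used here. In whole embryos, fewer cells of a type and less RNA per cell cannot be told apart.

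Each signal below is the log2 of a probe's processed intensity relative to the 75th percentile of its array, so that 0 is a probe at that percentile. Probes bind with unequal strength, so signals are compared between arrays and not between genes. Between 70.1% and 71.1% of probes were well above background on each array, and the 75th percentiles were 506 to 574 intensity units. The control arrays shared one slide and scan and the gata5/6 morpholino arrays another, so slide and group cannot be told apart. The labels do not say whether replicates are of separate clutches. The p-values therefore rest on the spread among these arrays alone, which may be technical. That spread was wider in the gata5/6 morpholino group, with a median SD per gene of 0.170 against 0.0654 in controls. The gata4 signal fell (log2 change -0.64, limma adjusted p = 0.00519), and the gata5 and gata6 signals rose (1.98 and 2.85), which does not check a block of translation.

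Of the 9 cathepsin genes, ctsz and ctsk rose after gata5/6 morpholino, each a little less than 2-fold, and none fell. The dipeptidyl peptidase gene ctsc lay above the controls on both arrays and narrowly missed the threshold. The members of the yolk types B, D and L and the hatching-gland cathepsin gene, ctslb, differed by at most 1.21-fold on their brightest probes. None of these genes passed, and other ctsba and ctsla probes reached 1.24-fold and 1.28-fold. Each gene was tested by its brightest probe with limma, and it passed at a Benjamini-Hochberg adjusted p under 0.05 over all genes. By this rule 7.84% of all genes were higher and 7.17% lower, against 2 of 9 and 0 of 9 members. The 22.2% of members that passed rests on 2 genes, too few to set against those shares. An unadjusted p under 0.05 was reached by 4 of the 9 genes, all 4 of them higher, against 31.8% of all genes. The median log2 change was 0.21 over the 9 genes and 0.04 over all genes tested.

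**Figure D1:**
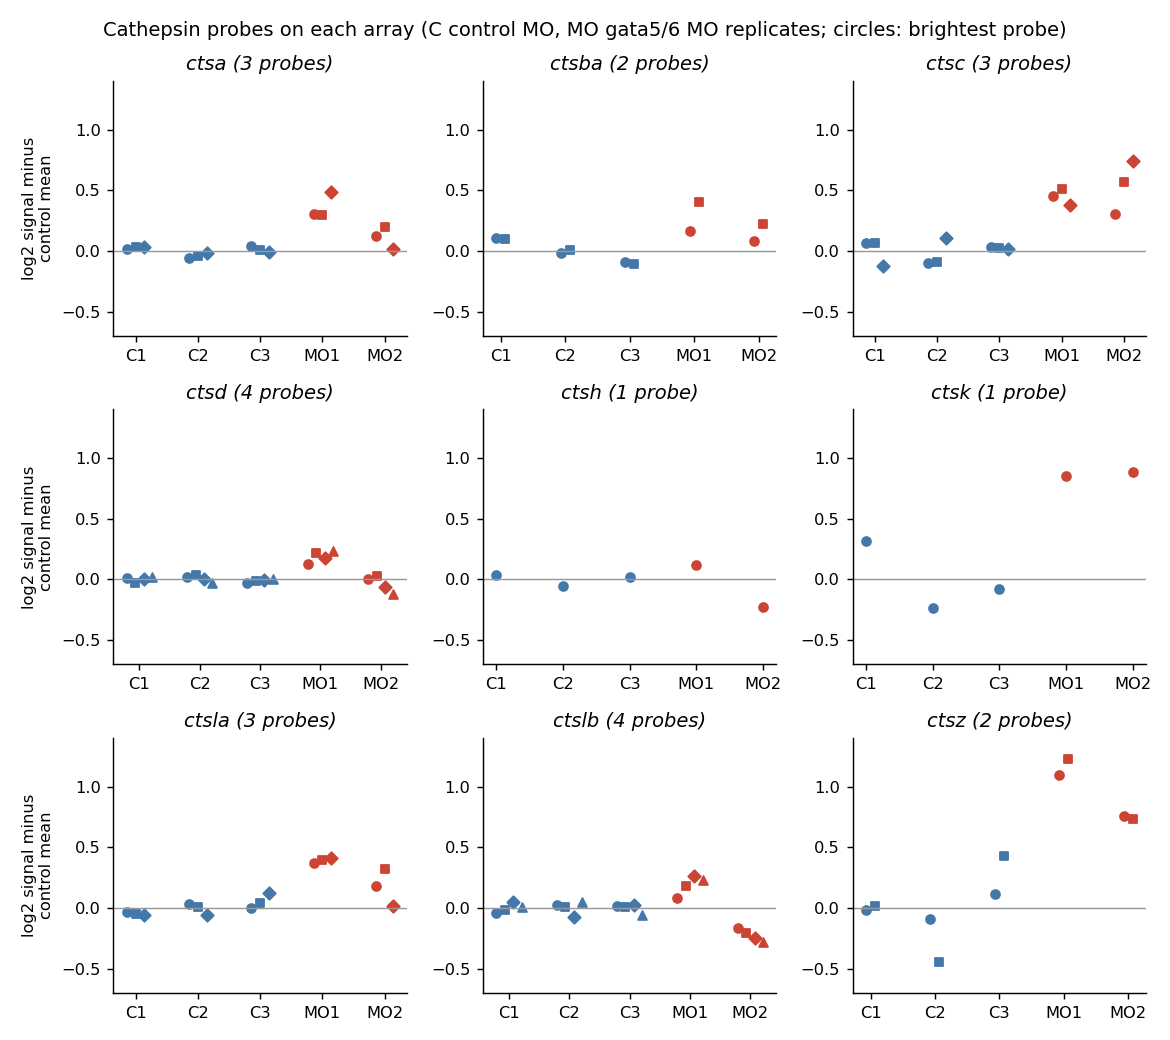
Log2 signal of each of the 23 cathepsin probes on each array, less that probe's mean over the 3 control arrays. C1 to C3 are control replicates and MO1 and MO2 gata5/6 morpholino replicates, and marker shapes separate probes of a gene. The ctsz, ctsk and ctsc probes on both morpholino arrays lie above all control arrays, whereas ctslb and ctsh lie on either side of 0.

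Among the exopeptidases, which trim proteins from an end, ctsz had the largest change. It encodes cathepsin Z, a carboxypeptidase that in mammals is found mainly in macrophages and other immune cells. Its brighter probe gave log2 signals of -2.40, -2.47 and -2.27 on the control arrays and -1.29 and -1.62 on the gata5/6 morpholino arrays. The groups did not overlap, and the gap between them was wider than the range within either. The gene was 1.90-fold higher (log2 change 0.93, SE 0.131, 95% interval 0.60 to 1.25, limma adjusted p = 0.00791). The call held without any 1 array, with log2 changes of 0.76 to 1.09, but not with default normexp background correction (0.46, adjusted p = 0.834). Over all probes, the same probe did not pass without control replicate 1 or 2 (limma adjusted p = 0.0531 and 0.0593). Nor did it with a variance for each group (0.0670). The second ctsz probe was dim, at -5.54, -5.99 and -5.12 in controls and -4.32 and -4.82 after gata5/6 morpholino. It was well above background on 2 of 3 control arrays and both others, and its change was similar, 0.98, but did not pass over all probes (limma adjusted p = 0.0795).

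The gene ctsc encodes cathepsin C, a dipeptidyl aminopeptidase that in mammals activates serine proteases of immune cells. Its brightest probe read 7.56, 7.39 and 7.53 in controls and 7.95 and 7.80 after gata5/6 morpholino, with no overlap. That is a 1.302-fold difference (log2 change 0.38, 95% interval 0.13 to 0.63, limma adjusted p = 0.0563). Its other probes gave larger changes of 0.54 and 0.56, the first of which passed over all probes (limma adjusted p = 0.0226) and the second did not (0.0594). On every ctsc probe both gata5/6 morpholino arrays lay above all control arrays. The gene passed when its probes were averaged (log2 change 0.49, limma adjusted p = 0.0161). With eBayes trend and robust settings it passed too (limma adjusted p = 0.0377). So it did with normexp parameters common to the arrays, chosen after seeing the data (0.35, limma adjusted p = 0.0232). Without gata5/6 morpholino replicate 2 its change was 0.46. Under 12 of 16 alternatives the gene did not pass. The probe that passed did so neither without control replicate 1, 2 or 3, at adjusted p of 0.0923 to 0.109, nor with a variance for each group (0.159).

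The exopeptidase gene ctsh encodes an aminopeptidase that in mammals also processes a lung surfactant protein. It read 5.14, 5.05 and 5.12 in controls, and 5.22 and 4.88 after gata5/6 morpholino. The morpholino arrays lay on either side of the controls, and the log2 change of -0.05 did not pass (95% interval -0.35 to 0.25, limma adjusted p = 0.797).

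Among the endopeptidases, which cut within a chain, ctsk was the one that rose. It encodes cathepsin K, the main collagen-cutting protease of osteoclasts in mammals. Its single probe read -1.70, -2.26 and -2.10 in controls and -1.16 and -1.14 after gata5/6 morpholino. The morpholino arrays nearly coincided, and control replicate 1 stood closer to them than the other controls did. The difference was 1.83-fold (log2 change 0.87, SE 0.172, 95% interval 0.45 to 1.29, limma adjusted p = 0.0244). This call was less stable than that of ctsz. It was lost without control replicate 2 (log2 change 0.75, adjusted p = 0.0749), control replicate 3 (0.83, 0.0946) or gata5/6 morpholino replicate 1 (0.88, 0.0722). In separate settings it was also lost when dim probes were kept (adjusted p = 0.0512), with a variance for each group (0.288), and with default normexp (0.48, 0.834).

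The L-type endopeptidase gene ctsla read 6.35, 6.41 and 6.38 in controls and 6.75 and 6.56 after gata5/6 morpholino. The groups did not overlap, but the 1.21-fold difference did not pass (log2 change 0.28, 95% interval 0.05 to 0.51, limma adjusted p = 0.107). Its other probes gave 0.36 and 0.22, and the groups overlapped on the dimmest of the 3. Without gata5/6 morpholino replicate 2 the gene passed (0.37, adjusted p = 0.0127).

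The gene ctslb, listed in RefSeq also under its older name hgg1, encodes an L-type cathepsin known from the hatching gland, which secretes the enzymes that free the embryo from its shell. It read 7.96, 8.02 and 8.01 in controls and 8.08 and 7.83 after gata5/6 morpholino. Replicate 1 lay above the controls and replicate 2 below them on each of its 4 probes. The log2 change was -0.04 (95% interval -0.29 to 0.21, limma adjusted p = 0.811), and the 4 probes gave -0.04 to 0.01. RefSeq also lists a related gene, ctslb.4, and how far the ctslb probes tell them apart was not tested.

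The B-type gene ctsba read 6.56, 6.44 and 6.37 in controls and 6.62 and 6.54 after gata5/6 morpholino, and the groups overlapped. Its log2 change was 0.12 (95% interval -0.11 to 0.36, limma adjusted p = 0.424). On its second probe the groups did not overlap, and the change was 0.31 (limma adjusted p = 0.141 over all probes).

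Cathepsin D, encoded by ctsd, is the aspartic endopeptidase of the lysosome. The brightest probe read 4.28, 4.29 and 4.24 in controls and 4.39 and 4.27 after gata5/6 morpholino. Its groups overlapped on all 4 probes, whose log2 changes ran from 0.06 to 0.12. The gene's change was 0.06 (95% interval -0.15 to 0.27, limma adjusted p = 0.657).

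The exopeptidase gene ctsa encodes a serine carboxypeptidase that in mammals also protects beta-galactosidase and neuraminidase in the lysosome. It read 3.72, 3.64 and 3.74 in controls and 4.002 and 3.82 after gata5/6 morpholino, without overlap. Its log2 change was 0.21 (95% interval -0.02 to 0.45, limma adjusted p = 0.194), and its 3 probes gave 0.21 to 0.25. It passed without gata5/6 morpholino replicate 2 (0.30, adjusted p = 0.0285). The genes of its mammalian partners, glb1 and neu1, had log2 changes of -0.12 and 0.24 and did not pass. They were chosen after their values were seen.

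**Figure D2:**
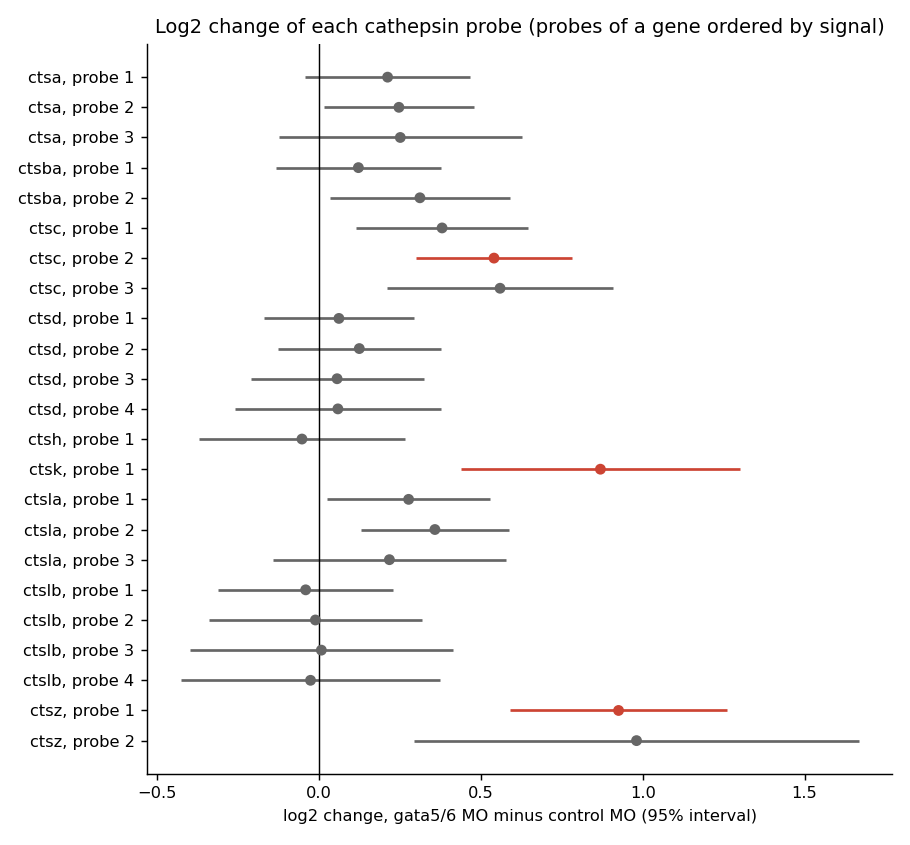
Log2 change (gata5/6 morpholino minus control) of each cathepsin probe, with its 95% interval from the fit over all probes. Red marks the 3 probes that passed, of ctsc, ctsk and ctsz, and grey the rest. The 4 ctsd and 4 ctslb probes cluster near 0.

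Over the 23 probes, all of which passed the filter on dim signal, 3 were higher and none was lower, where 6.09% of all probes tested were higher. Both gata5/6 morpholino arrays lay above all controls on 11 probes, against 25.3% of all probes, and below all controls on none. For the latter no share over all probes was computed, and probes of the same gene are not independent. Among genes, both morpholino arrays lay above all controls for 5 of 9, against 29% of all genes. Groups that did not overlap in either direction made up 50.8% of all genes. The replicates of the morpholino group differed in the same direction for most members. On the brightest probes, replicate 1 read higher than replicate 2 for 8 of the 9 genes, with ctsk the exception. The other ctsc probes read higher on replicate 2, at 3.96 against 3.90 and 2.17 against 1.81. Over all genes the median difference between these replicates was 0.07, and it was 0.17 over the 1080 genes in the top 10% by mean signal, which include 7 of the 9 members. Its part in the members' values was not tested. Without gata5/6 morpholino replicate 2, the remaining array of that group was assumed to vary like the controls. More members were then called higher, as were more of all genes tested. The ctsz change was 0.76 without replicate 1 and 1.09 without replicate 2. The median change over all genes was 0.01 and 0.07 in the same fits.

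**Figure D3:**
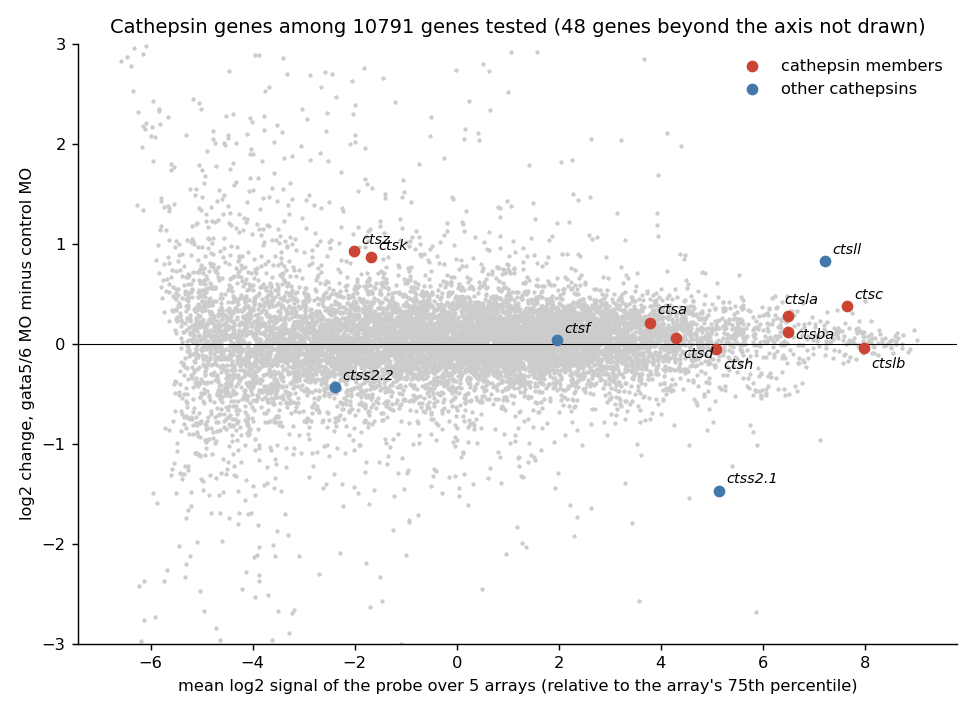
Log2 change of each gene against the mean log2 signal of its probe over the 5 arrays, for 10791 genes (grey), the 9 cathepsin members (red) and 4 other cathepsin genes (blue). Signal reflects probe strength as well as RNA amount, and 48 genes beyond 3 log2 units are not drawn. Among the labelled cathepsins ctsz lies highest, at 0.93, and ctss2.1 lowest, at -1.47.

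Other cathepsin genes on the array moved in both directions. The L-type gene ctsll rose, with signals of 6.89, 6.87 and 6.94 in controls and 7.90 and 7.55 after gata5/6 morpholino. The groups lay far apart relative to the controls' spread, and the gene was 1.77-fold higher (log2 change 0.83, SE 0.124, limma adjusted p = 0.00997). Its call was lost without control replicate 2 (0.81, adjusted p = 0.0544).

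The cathepsin S gene ctss2.1, whose mammalian counterpart cuts antigens and the invariant chain in antigen-presenting cells, fell. It read 5.76, 5.72 and 5.70 in controls and 4.40 and 4.12 after gata5/6 morpholino. It was 2.76-fold lower (log2 change -1.47, SE 0.109, limma adjusted p = 0.000834), and all 3 of its probes passed, at -1.47 to -1.55. Its call held without any 1 array but not with default normexp (-1.33, adjusted p = 0.144), which also ended that of ctsll (1.03, 0.227). In the RefSeq annotation ctss2.1 lies between ctsk and ctss2.2, so genes next to each other changed in opposite directions. The gene ctss2.2 had a log2 change of -0.43 and did not pass (limma adjusted p = 0.0797). It was called lower with the replicate block (-0.48, adjusted p = 0.0420) and without gata5/6 morpholino replicate 1 (-0.58, 0.0396). The gene ctsf, of cathepsin F, had a log2 change of 0.04 (adjusted p = 0.754). Probes of ctsl.1 and ctss1 were not well above background on every array of either group and were not tested. Among other direct neighbours of the members, chosen after their values were seen, pltp next to ctsa fell (-1.02, limma adjusted p = 0.00104). The repressor gene bhlhe41 next to ctsd was lower by at least 9.64-fold (adjusted p = 0.000623), whereas ctsd itself differed little. The neighbours ncoa5 of ctsa (-0.15), nelfcd of ctsz (0.23) and dapk1 of ctsla (0.09) did not pass.

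The 5 named genes whose values over the 5 arrays lay nearest to those of ctsz were hoxb13a, rbp5, cfb, rab3c and f2. The measure was the Euclidean distance between log2 values centred on the control mean, and it was 0.07 to 0.16. On no control array was hoxb13a, of a posterior homeodomain factor, well above background, and its direction turned with default normexp (-0.38). The other 4 had log2 changes of 0.89 to 0.97, and the call of rab3c was lost without control replicate 2 (0.96, adjusted p = 0.0542). They encode a retinol-binding protein, complement factor B, a vesicle-traffic GTPase and prothrombin. With so few arrays, such closeness describes little more than a similar size of change. No fallen member existed for the same search.

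Genes of the rest of the lysosome changed in both directions. Of 100 measured genes of its hydrolases, membrane, proton pump and sorting machinery, 11 rose and 8 fell, and the median log2 change was 0.03. The remaining 81 missed the threshold. The share that passed was 19%, against 15% of all genes. Their summed signal on the linear scale was 441 to 448 in controls and 454 to 492 after gata5/6 morpholino. Bright probes weigh heavily in such a sum, so it does not show a rise across these genes. Leaving out control replicate 1 gave 5 higher and 3 lower genes. Without control replicate 2 these counts were 4 and 5, and without the third control they were 3 and 3. Leaving out a morpholino array leaves 1 in that group. Without gata5/6 morpholino replicate 2 more of these genes passed in both directions, as did more of all genes. Of the 19, 6 passed without each array in turn, and these were scpep1, acp5b, ggh, abcb9, tpcn2 and atp6v0cb.

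The list of other lysosomal hydrolases also holds some genes of other kinds, such as epdr1. Of its 34 measured genes, 7 rose and 3 fell, with a median of 0.15 and 23 of 34 changes above 0. Over all genes 55.3% of changes were above 0. The shares of all genes, 7.84% higher and 7.17% lower, stand beside each list count here and below. The summed signal of the 34 genes was 115 in each control and 135 to 154 after gata5/6 morpholino, with no overlap. The bright probes of acp5a (log2 change 0.42, limma adjusted p = 0.0475) and dpp7 (1.08) weigh heavily in this sum. It therefore does not show a rise across the list. Without 1 control array, 2 to 4 were higher and 1 to 3 lower. More passed without gata5/6 morpholino replicate 2, as over all genes. The acp5a call was kept in 1 of the 5 ways of leaving out an array. The gamma-glutamyl hydrolase gene ggh was 3.55-fold higher (log2 change 1.83, limma adjusted p = 0.00179). The acid phosphatase gene acp5b, of the tartrate-resistant type that marks osteoclasts, was 3.13-fold higher (1.65, adjusted p = 0.00132). The dipeptidyl peptidase gene dpp7 rose too (1.08, adjusted p = 0.0124), a call lost without control replicate 2 (1.09, 0.0585) or 3 (1.05, 0.0546). In contrast the serine carboxypeptidase gene scpep1, a relative of ctsa, was 3.55-fold lower (-1.83, adjusted p = 0.000465). The gene epdr1, of an ependymin-related lysosomal protein, fell (-0.83, adjusted p = 0.0223), a call lost without control replicate 1 or 3 (adjusted p = 0.0653 and 0.0886). The third gene that fell, gnsb, encodes a glucosamine sulfatase (-1.09, adjusted p = 0.0257), and its call was lost without control replicate 1 or 3 or gata5/6 morpholino replicate 1 (0.0550 to 0.0877). Legumain, which in mammals helps to mature B- and L-type cathepsins, is encoded by lgmn, chosen after its value was seen, which had a log2 change of 0.27 and did not pass.

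Of 20 membrane genes, 3 rose and 2 fell, and without 1 array 1 to 4 were higher and 1 to 5 lower. The peptide transporter gene abcb9 was not well above background in controls and was at least 5.20-fold higher (limma adjusted p = 0.000398). The ion channel gene tpcn2 was 2.50-fold lower (-1.32, adjusted p = 0.00135). The others were lamp2 (0.44, adjusted p = 0.0229), mfsd12a (0.48, 0.0458) and cln3 (-0.42, 0.0333), and each of these calls was lost without control replicate 1, 2 or 3, mfsd12a also without gata5/6 morpholino replicate 1. Over all 5 ways of leaving out an array, the changes were 0.38 to 0.49 (lamp2), 0.41 to 0.56 (mfsd12a) and -0.49 to -0.35 (cln3). The call of lamp2 was also lost with the replicate block (adjusted p = 0.0678), as was that of cln3 (0.101).

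Of 20 subunits of the proton pump, which supplies the acid that cathepsins need, none rose and 2 fell, and 3 were higher and 4 lower at an unadjusted p under 0.05. The count of risen subunits was 2 with eBayes trend and robust settings and 1 with the replicate block. Some subunits also rose without gata5/6 morpholino replicate 2, where more of all genes did. Those that fell were atp6v0cb (-0.75, limma adjusted p = 0.00686) and tcirg1b (-0.40, adjusted p = 0.0377), the latter not passing once any control array was left out (-0.38 to -0.41), nor with the replicate block (adjusted p = 0.102). Of 26 sorting and activator genes, cln8 rose (0.47, adjusted p = 0.0223) and gm2a fell (-0.86, adjusted p = 0.0294). Both lost their calls without control replicate 1, 2 or 3, at 0.46 to 0.48 and -0.79 to -0.93, and cln8 turned to -0.33 with default normexp. More genes of this list passed in both directions without gata5/6 morpholino replicate 2, as over all genes, and more were higher without replicate 1. The genes of the mannose-6-phosphate receptors, which carry cathepsin precursors to the lysosome, were m6pr (-0.15) and igf2r (-0.39), chosen after their values were seen, and neither passed. Of the transcription factors that drive lysosomal genes in mammals, tfe3a was measured (-0.48, adjusted p = 0.114) and did not pass. It was called lower with the replicate block (-0.53, adjusted p = 0.0252) and without gata5/6 morpholino replicate 2 (-0.75, 0.00787).

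Cystatin-family genes, which include inhibitors of cysteine cathepsins, had 2 rises and 1 fall among 5. The fetuin gene ahsg1 and the kininogen gene kng1 rose (log2 changes 4.12 and 1.42, limma adjusted p = 0.000197 and 0.00183). The cystatin gene cst14b.1 fell (-1.01, adjusted p = 0.00499). The change of ahsg1 was 2.76 and 2.91 without gata5/6 morpholino replicate 1 and 2, where another of its 3 probes was the brightest, and it passed there too. With default normexp it was 1.75 (adjusted p = 0.430), and none of the 3 calls held. More of the 5 genes were higher without gata5/6 morpholino replicate 2, as was the case over all genes. The cystatin C gene cst3 (0.48, adjusted p = 0.121) did not pass.

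**Figure D4:**
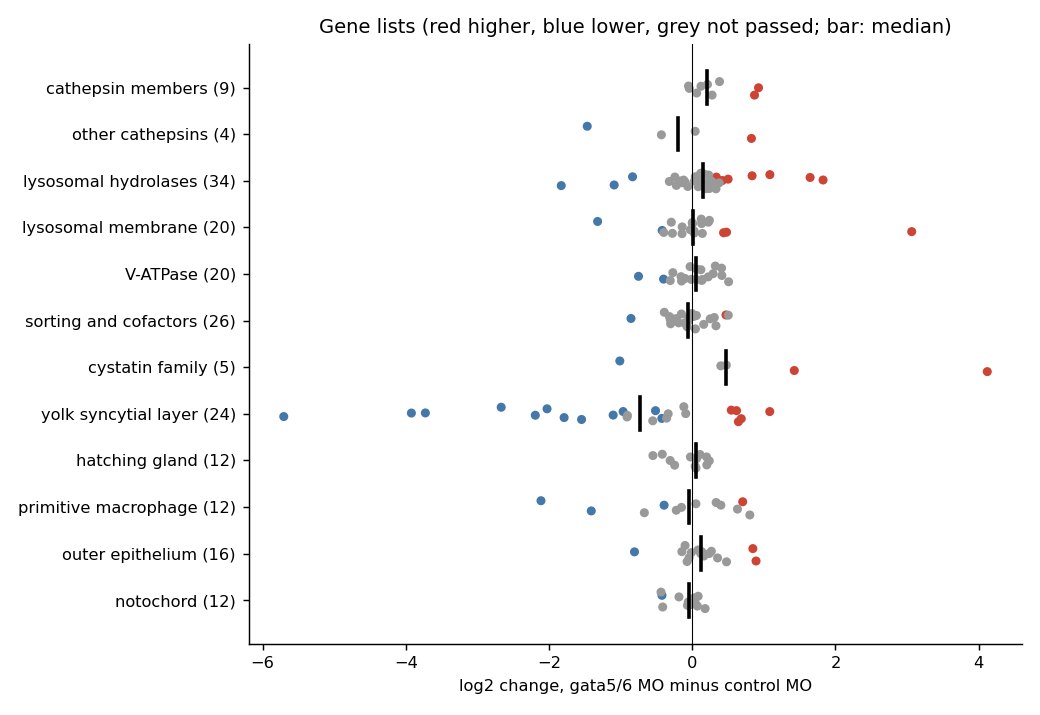
Log2 change of each measured gene in 12 lists, with list sizes in parentheses, where each point is a gene and the black bar the list's median. Red genes were higher and blue lower at an adjusted p under 0.05. The yolk list has the lowest median, -0.73, and no hatching gland gene passed.

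Markers of cell types that use cathepsins were read beside the members, and their part in the members' values was not tested. Beside the marker counts that follow, 7.84% of all genes were higher and 7.17% lower. Of 24 genes of the yolk syncytial layer, the nucleated outer layer of the yolk cell, 12 fell and 5 rose, with a median of -0.73. Their summed signal on the linear scale was 773 to 793 in controls and 554 to 641 after gata5/6 morpholino. The count of lower genes was 10 to 16 without 1 array, and that of higher genes was 1 without control replicate 1, 2 or 3. The arrays measured RNA, not the yolk protein that cathepsins cut, also for the vitellogenin genes among these 24. Those that rose were slc26a1, of a sulfate transporter (log2 change 1.08, limma adjusted p = 0.00363), the factor genes hhex (0.55, 0.00882), hnf4a (0.62, 0.0192) and mxtx1 (0.64, 0.0235), and the apolipoprotein gene apoa2 (0.68, 0.0479). Of these slc26a1 passed without each array in turn, and the others were lost without control replicate 1, 2 or 3. By log2 change the largest falls were those of cd36 and of the apolipoprotein genes apoa4a and apoea, not of vitellogenin genes. Among the other genes that fell, vtg7 was 4.57-fold lower (-2.19, limma adjusted p = 0.000727). Chosen after their values were seen, vtg4 was lower by at least 3.39-fold (adjusted p = 0.00365), and vtg6 (-2.03) and vtg5 (-1.10, above background on 1 of the 2 morpholino arrays) fell too. Vitellogenin genes are near-identical in places, so their probes may share signal.

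Of 12 hatching gland genes none passed by limma in either direction, and their median log2 change was 0.05. At an unadjusted p under 0.05, 0 were higher and 2 lower, and 1 was lower with eBayes trend and robust settings. Their summed signal was 169 to 172 in controls and 155 to 196 after gata5/6 morpholino. The hatching enzyme gene he1.1 had a log2 change of 0.11 and he1.2 of 0.04, both chosen after their values were seen. The list moved with the morpholino replicate, as did most members, so this trait is not particular to ctslb or the list. Some hatching gland genes passed in both directions without replicate 2, where more of all genes passed too, and a gene was lower without replicate 1.

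Of 12 primitive macrophage genes 3 fell and 1 rose, with a median of -0.05 and summed signals of 20.6 to 21.8 in controls and 16.5 to 17.3 after gata5/6 morpholino. The factor genes spi1b (-2.11, limma adjusted p = 0.000189) and irf8 (-1.41, adjusted p = 0.000502) and cebpb (-0.39, adjusted p = 0.0301) fell, and the oxidase gene cybb rose (0.70, adjusted p = 0.0160). Both of the last calls were lost without control replicate 2 or 3, at 0.62 to 0.72 for cybb. That of cebpb was also lost without control replicate 1 (-0.37 to -0.42 over the 3) and with the block by number (adjusted p = 0.0916). Of the 20 listed genes on the array, 8 did not pass the filter on dim signal. More macrophage genes passed in both directions without gata5/6 morpholino replicate 2, as over all genes. Of 16 outer epithelium genes 2 rose and 1 fell, and of 12 notochord genes 1 fell. These calls, icn and icn2 (0.89 and 0.85) and anxa1a and cmn (-0.81 and -0.42), were each lost without control replicate 1, 2 or 3 (0.84 to 0.92, 0.80 to 0.88, -0.79 to -0.84 and -0.40 to -0.45), and that of cmn with the replicate block (adjusted p = 0.0630). More outer epithelium genes were higher without gata5/6 morpholino replicate 2, and more notochord genes passed in both directions, as over all genes.

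**Figure D5:**
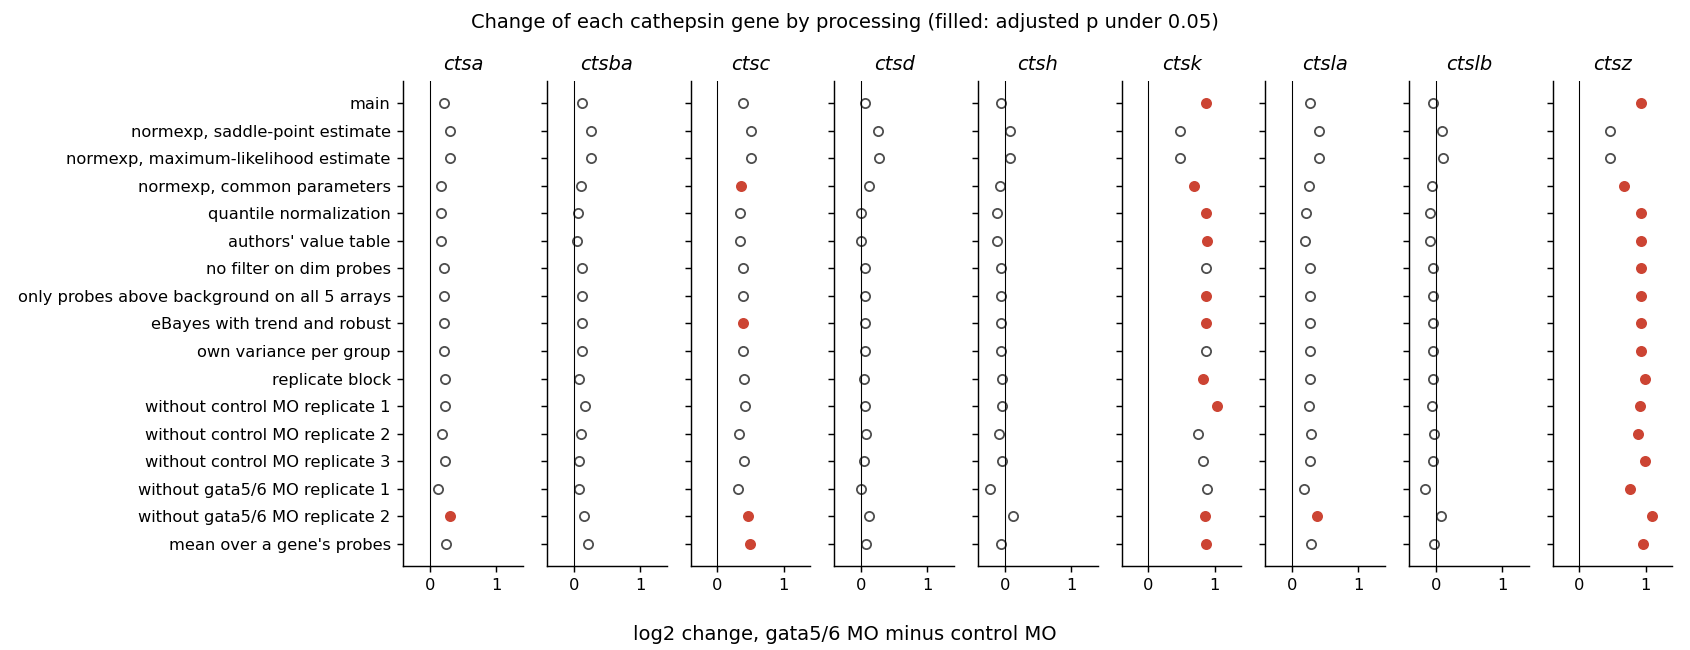
Log2 change of each cathepsin gene in the fit reported here (main) and under 16 alternatives, filled where the adjusted p was under 0.05. The ctsz change is filled under all alternatives but the saddle-point and maximum-likelihood normexp corrections, and ctsk is open under 7.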

How the data were processed

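Total RNA of whole embryos was labelled with Cy3 and hybridised to 1-colour Agilent arrays, per the labels. Per the file headers the authors read them with Agilent Feature Extraction 10.7.3.1, while the submitters' processing notes name 10.7.1.1. The deposited processed signal is an intensity, background-subtracted and detrended within the array and not scaled between arrays. The deposited value table holds log2 values (column medians 6.10), and no source used here states how they were made. They correlated with the log2 signals at 0.9998 to 1.000 and are not centred on 0.

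Control spots and 52 probes with an outlier spot were left out, and spots of a probe were averaged. Probes needed signal well above background on all arrays of the control or the gata5/6 morpholino group, and 30616 met this. Accessions were matched without versions to the RefSeq table of assembly GRCz12tu, which named 25598 probes and is used for names and neighbours alone. A gene was its brightest probe on average. The group difference was fitted in limma 3.58.1 (R 4.3.3), with 3 residual degrees of freedom, no covariates and two-sided tests, once over genes and once over probes. The fit was tested on simulated data with the same spread in both groups. These arrays differ in spread between groups, so that test does not cover them in this respect. Named are all members and other cathepsins, genes behind counts of 5 or fewer, and the 4 smallest adjusted p-values per list. A selection of these is printed. Members and lists were chosen with earlier results of these data known. The number of arrays limits the precision.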

Additional observations from a re-analysis of the deposited data

How the results depend on the processing

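With default normexp (offset 50), by saddle-point or maximum-likelihood estimate, no member or member probe passed, 19 genes were higher and 23 lower, and of the lysosome genes 0 were higher and 1 lower. The saddle-point background mean was -242.9 for control replicate 3 and -1.29 to 8.58 for the rest. Normexp with parameters common to the arrays, chosen after seeing the data, gave 3 higher members and 5 higher member probes. In that fit 829 genes were higher and 718 lower. With a variance for each group, 290 genes were higher and 257 lower, as were 4 and 2 lysosome genes, 1 member was higher and 0 member probes were. With no filter on dim probes, 1 member was higher and 4 lysosome genes lower. Higher member probes were 6 with eBayes trend and robust settings and 5 with the replicate block. Without 1 array, 370 to 3116 genes were higher and 313 to 2172 lower, 1 to 5 members and 0 to 12 member probes higher (0 to 0 lower), and 3 to 26 lysosome genes higher and 3 to 20 lower.

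Directions turned as follows, and the cause was not tested. With default normexp by its saddle-point and maximum-likelihood estimates, ctsh was 0.0740 and 0.0784 and ctslb 0.102 and 0.107. Other ctslb probes were 0.146 and 0.151, and 0.0920 and 0.0963, and the dim ctsz probe -0.190 and -0.208. The same estimates gave cln8 -0.334 and -0.352, hnf4a -0.0783 and -0.0877, krt18b -0.242 and -0.257, and hoxb13a -0.375 and -0.396. With quantile normalization and the authors' deposited table ctsd was -0.000233 and -0.000305, and 1 ctslb probe -0.0749 and -0.0670. That probe was -0.00286 with common normexp parameters. With the mean over probes krt18b was -0.0370. Without 1 array in turn, ctsd ran from -0.000165 to 0.123 (other probes -0.0654 to 0.177 and -0.120 to 0.237), ctsh from -0.226 to 0.121, and ctslb from -0.163 to 0.0806 (other probes -0.203 to 0.180, -0.251 to 0.265 and -0.279 to 0.227).

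Same-numbered arrays deviated together at 0.12 and 0.20 (correlation across genes). The deviations of the 2 morpholino arrays mirror each other by construction, and control replicate 3 gave 0.09 with morpholino replicate 1. So few and dependent values cannot show whether numbers pair samples. The replicate block leaves control replicate 3 without weight. It changed no member's call at the gene level: ctsz was 0.98 (adjusted p = 3.88e-06), ctsk 0.83 (0.000141) and ctsc 0.40 (0.113). The block leaves fewer residual degrees of freedom than the main fit, and its small p-values are not taken as stronger evidence. Why they were smaller was not tested. Without control replicate 3 the same changes had limma adjusted p = 0.0283 for ctsz, 0.0946 for ctsk and 0.178 for ctsc.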
